A study of Mus musculus with 2 samples.

Results

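The proteasome subunit genes are described here in 2 zones of the embryonic growth plate. They were taken as every gene whose symbol is Psm followed by one of the letters a to g and a number, and that a probe set of the array named alone. This gave 47 genes with 100 probe sets, out of 18193 genes. The RNA was from cartilage of C57BL/6J wild-type embryos at embryonic day 17.5, and the labels name no altered allele and no agent. One array was hybridised with RNA enriched in round chondrocytes and the other with RNA enriched in columnar and hypertrophic chondrocytes, 3 portions of cartilage plate being mixed for each. Each zone is therefore 1 array of mixed, dissected tissue, the columnar and hypertrophic cells are not separated from each other, and no value below has a replicate error or a test.

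The proteasome is the barrel-shaped protease that degrades proteins tagged with ubiquitin. Its core, the 20S particle, is built of outer rings of α subunits and inner rings of β subunits, of which 3 kinds of β subunit carry the active sites. The 19S regulatory particle caps the core. Its ATPases unfold the substrate, and its other subunits bind ubiquitin and cut it off. Interferon and immune cells replace the catalytic β subunits with immunoproteasome subunits, and other activators, an inhibitor and a set of assembly chaperones act on the core or on its building. Chondrocytes secrete large amounts of collagen, and misfolded chains that are returned from the endoplasmic reticulum to the cytosol are among the substrates of the proteasome.

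Nearly every proteasome gene that was detected had a somewhat higher signal in the columnar/hypertrophic zone. Signals are MAS5 intensities, given for each gene in the order round, columnar/hypertrophic. A floor of 100.5 was set from probe sets of odorant, taste and similar receptor genes, which have no known role in cartilage. Of the 47 genes, 44 lay above the floor on both arrays, and Psmb8, Psmb9 and Psmb11 lay under it on both. Differences are given on the log2 scale as columnar/hypertrophic minus round. Of the 44 genes, 42 lay above 0, against 45.1% of the 11703 genes that at least 1 array detected above the floor. The exceptions were Psme1, an activator subunit, and Psma8, a core subunit known from testis. The median was 0.39, a 1.31-fold higher signal, and the median of all genes measured was -0.05. This direction was not particular to the proteasome, as 44 of 47 cytosolic ribosomal protein genes also lay above 0. Scaling the arrays to equal medians put 43 members and 66.9% of all genes above 0, and Psme1 stayed the exception. The proteasome median lay above 80.8% of single genes, so single differences of this size were common on the array.

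**Figure D1:**
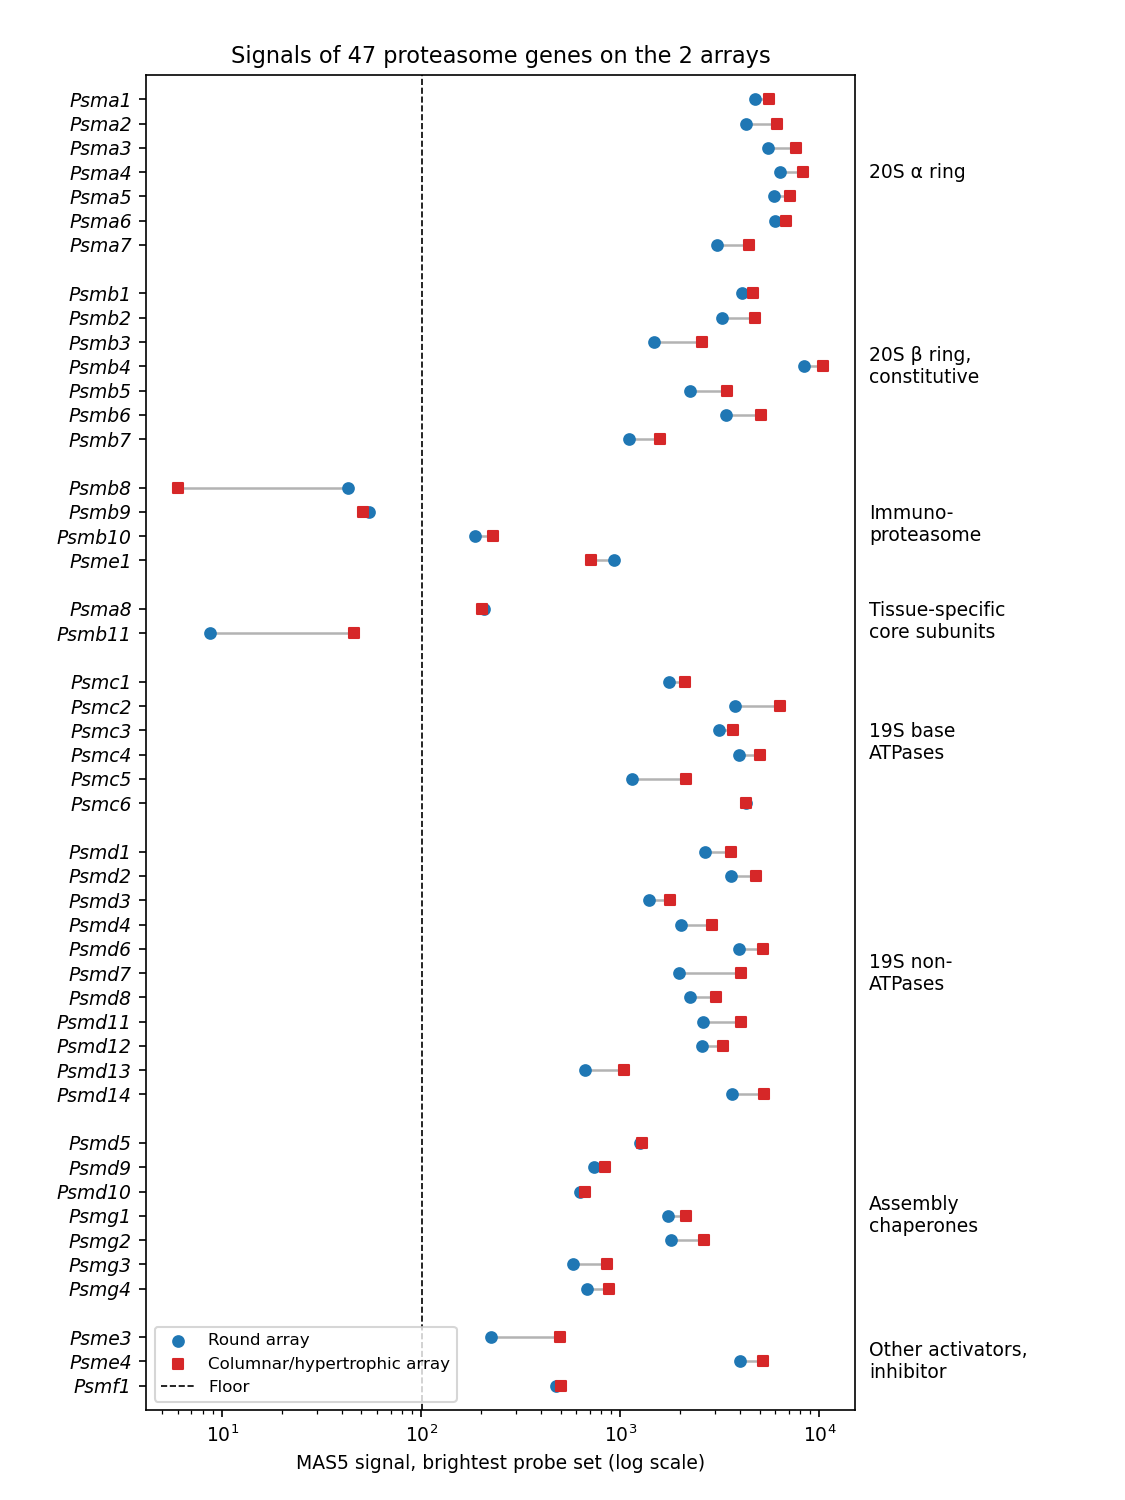
MAS5 signal of the brightest probe set (horizontal, log scale) for each of the 47 proteasome genes, grouped by role, with circles for round and squares for columnar/hypertrophic cartilage and a dashed line at the floor (100.5). Squares lie to the right of circles for the constitutive 20S and 19S genes, with Psmc6 nearly overlapping, while Psmb8 and Psmb9 lie under the floor on both arrays and Psme1 goes the other way.

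How many members passed a fold limit depended on the scaling. As deposited, at least 1.5-fold higher signals were found for 8 members, Psmb3, Psmb5, Psmc2, Psmc5, Psmd7, Psmd11, Psmd13 and Psme3, against 11.7% of all genes measured. With the arrays scaled to equal medians the count was 30 of 44, against 23.6% of all genes, and when a gene's probe sets were averaged it was 4, against 8.64%. As deposited, none of the 44 was at least 1.5-fold lower, against 15.8%. At 2-fold, 2 members were higher (4.31% of all genes) and 0 lower (6.37%). As a technical scale, probe sets of the same gene spread with an SD of 0.367 over the 4825 genes with several of them detected on both arrays, and with an SD of 0.363 over the 21 such proteasome genes. This SD describes probe sets and not animals. The difference exceeded it upwards for 25 of the 44 members, against 20.2% of all genes, and downwards for 1, Psme1.

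The α ring of the core, which gates the entry of substrates, differed little from gene to gene. All 7 genes were higher on the columnar/hypertrophic array, between 0.18 and 0.53, with a median of 0.38, although the mean of their probe sets put Psma1 and Psma6 below 0. Psma7 had signals of 3054 and 4410 (1.44-fold), and its other probe set gave the same difference of 0.53. Psma2 had signals of 4256 and 6129 (1.44-fold). The smallest differences in the ring were those of Psma6, with 5993 and 6806 (0.18), and Psma1, with 4718 and 5602 (0.25), whose further probe sets gave -0.35 and -0.61. Psma3, Psma4 and Psma5 lay between them at 0.46, 0.38 and 0.26. As deposited, every α gene stayed within 1.5-fold.

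The constitutive β ring holds the active sites and showed the wider range. Its 7 genes were all higher on the columnar/hypertrophic array, between 0.18 and 0.80, with a median of 0.56. Psmb5 encodes the chymotrypsin-like subunit and had signals of 2229 and 3417 (1.53-fold). The gene of the caspase-like subunit, Psmb6, had signals of 3391 and 5057 (1.49-fold), and that of the trypsin-like subunit, Psmb7, 1102 and 1576 (1.43-fold). The genes of the catalytic subunits thus differed by similar amounts, 0.62, 0.58 and 0.52, each from a single probe set. Among the β subunits without an active site, Psmb3 had the largest difference of the core, with 1469 and 2561 (1.74-fold) and 0.66 by its other probe set. Psmb2 was also higher (3227 and 4747, 0.56). Psmb1, with 4065 and 4621 (0.18), and Psmb4, with 8392 and 10389 (0.31), had the lowest values of the ring.

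Of the immunoproteasome genes, those of the catalytic subunits had low signals or none above the floor. Psmb8, which replaces Psmb5, had signals of 42.6 and 6.02, and Psmb9, which replaces Psmb6, 54.8 and 50.7, both under the floor on both arrays, so no difference is given. The other Psmb8 probe set lay under it as well (11.9 and 0.80). Psmb10, which replaces Psmb7, was above the floor, with signals of 186 and 230 (0.30). Psme1, a subunit of the interferon-inducible PA28 activator, was well above it and lower on the columnar/hypertrophic array, with 926 and 714, a 1.30-fold lower signal. It has a single probe set well above the floor, so that of the alternative settings only the scalings could move it, and it was -0.34 after quantile normalization, -0.36 after lowess centring and -0.10 with equal medians. Psme2, the partner of Psme1, was not analysed here because the probe set that names it names another gene too. Psmb10 and Psme1 thus went in opposite directions, and their median was -0.04. This was 0.53 under the median of the 14 constitutive core genes, 0.49. After lowess centring, which removes the trend of differences with signal, the difference of the medians was -0.29. Psmb10 was then at 0.51, above the core median of 0.36 and near its counterpart Psmb7 at 0.50. The centred gap thus came from Psme1 alone, and a median of 2 genes with opposite signs does not describe the immunoproteasome subunits as a group.

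To show the regulatory sequence in front of a constitutive subunit and its counterpart, the 250 bases before the start of Psmb5, Psmb6, Psmb8 and Psmb9 are printed from the RefSeq promoters of GRCm38.p6. Psmb5 and Psmb6 hold the letters TGACNNNGC, the core of the antioxidant response element through which the transcription factor NRF1 (gene Nfe2l1) is known to act on proteasome genes, and these are in capitals. In Psmb8 the capitals mark TTCNNNGAA, the letters of an interferon-γ activated site, and in Psmb9 they mark CCAAT, read on the opposite strand.
Psmb5, chr14:54617996-54618245, minus strand: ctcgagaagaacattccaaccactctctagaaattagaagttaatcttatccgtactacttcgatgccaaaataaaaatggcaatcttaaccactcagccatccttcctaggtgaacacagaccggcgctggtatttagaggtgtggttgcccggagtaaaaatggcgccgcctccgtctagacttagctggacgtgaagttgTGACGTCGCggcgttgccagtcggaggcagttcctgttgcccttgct
Psmb8, chr17:34197945-34198194, plus strand: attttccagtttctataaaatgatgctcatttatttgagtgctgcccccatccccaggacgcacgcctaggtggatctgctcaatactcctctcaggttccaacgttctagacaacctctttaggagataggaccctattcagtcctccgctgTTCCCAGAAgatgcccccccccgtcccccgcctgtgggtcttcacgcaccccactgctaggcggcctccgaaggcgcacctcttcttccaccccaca
Psmb6, chr11:70525107-70525356, plus strand: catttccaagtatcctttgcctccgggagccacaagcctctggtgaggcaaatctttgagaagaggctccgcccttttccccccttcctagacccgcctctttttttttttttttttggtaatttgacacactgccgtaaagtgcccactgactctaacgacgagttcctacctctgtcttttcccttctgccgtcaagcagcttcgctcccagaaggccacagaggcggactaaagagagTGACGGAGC
Psmb9, chr17:34187331-34187580, minus strand: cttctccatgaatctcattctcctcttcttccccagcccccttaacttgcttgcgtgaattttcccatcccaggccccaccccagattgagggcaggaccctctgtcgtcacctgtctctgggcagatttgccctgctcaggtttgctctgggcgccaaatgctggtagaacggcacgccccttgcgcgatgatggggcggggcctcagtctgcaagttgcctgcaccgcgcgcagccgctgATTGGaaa

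For 3 of the 4 motifs searched, the share of proteasome genes was near the share of all promoter windows. Windows of 300 bases (250 before and 50 after the start) were held for 39 of the 47 members. A member counted if any of its windows matched, so the shares of genes and of windows are unlike in unit. Both strands were searched, and TGACNNNGC was found in 6 of the 39 genes (15.4%), namely Psmb5, Psmb6, Psmc6, Psmd9, Psmd12 and Psme4, against 12.4% of all 32851 windows. Their differences ran from 0.01 for Psmc6 to 0.62 for Psmb5. CCAAT was found in 14 genes (35.9%, against 37.4%) and TTCNNNGAA, which reads alike on both strands, in 3 (7.69%, against 8.3%), which were Psmb8, Psmd2 and Psmg1. GAAA followed by any 2 bases and GAAA, the core of the interferon-stimulated response element, was found in 5 genes (12.8%, against 3.44%), Psmb3, Psmd4, Psmd9, Psme1 and Psmg4. Psmb3 and Psme1, which both hold it, differed by 0.80 and -0.38. A match is a description of the letters and not a binding site. Nfe2l1 itself had signals of 2209 and 2947 (0.42), and Nfe2l2, a related factor, 542 and 788 (0.54).

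The 19S ATPases, the ring that unfolds substrates and threads them into the core, differed among themselves more than the α ring did in range. All 6 lay above 0, between 0.01 and 0.89, with a median of 0.31, but Psmc6 fell below 0 under quantile normalization and lowess centring. Psmc5 had signals of 1150 and 2128 (1.85-fold). Psmc2 had 3744 and 6346 (1.69-fold), and a second bright probe set gave 0.84, whereas a dim one with signals of 178 and 122 gave -0.54. At the other end, Psmc6 had practically equal signals of 4255 and 4298 (0.01), and its other probe sets gave -0.22 and -0.90. Psmc3, with 3121 and 3684 (0.24), and Psmc1, with 1758 and 2109 (0.26), were close to each other, and Psmc4 gave 0.35 by its brightest probe set and 0.74 by another.

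The other 11 subunits of the 19S particle all lay above 0. They ran between 0.35 and 1.04, with a median of 0.45. Psmd7, the partner of the deubiquitinase subunit, had signals of 1964 and 4050, a 2.06-fold higher signal and the largest of the 19S particle, but a dimmer probe set (392 and 423) gave 0.11. Psmd14, the deubiquitinase that removes ubiquitin before degradation, had 3630 and 5285 (1.46-fold). Psmd4, a ubiquitin receptor, had 2023 and 2877 (1.42-fold, and 0.33 by another probe set). Psmd11 had 2597 and 4038 (1.55-fold), with 4 others above the floor on each array between 0.22 and 0.58, and another, detected on the round array alone, at -0.24. The lowest values were those of Psmd12, with 2574 and 3272 (0.35), and Psmd3, with 1388 and 1769 (0.35).

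Psmd13 was the member on which probe sets disagreed most. Its brightest probe set went from 668 to 1038 (1.56-fold), while 2 others gave -0.21 (774 and 669) and -0.86 (266 and 147). With the mean of all its probe sets the difference was -0.14, so no direction is settled for Psmd13. The 19S particle as a whole had a median of 0.43, which was 0.06 under that of the constitutive core. After lowess centring both medians were 0.36.

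**Figure D2:**
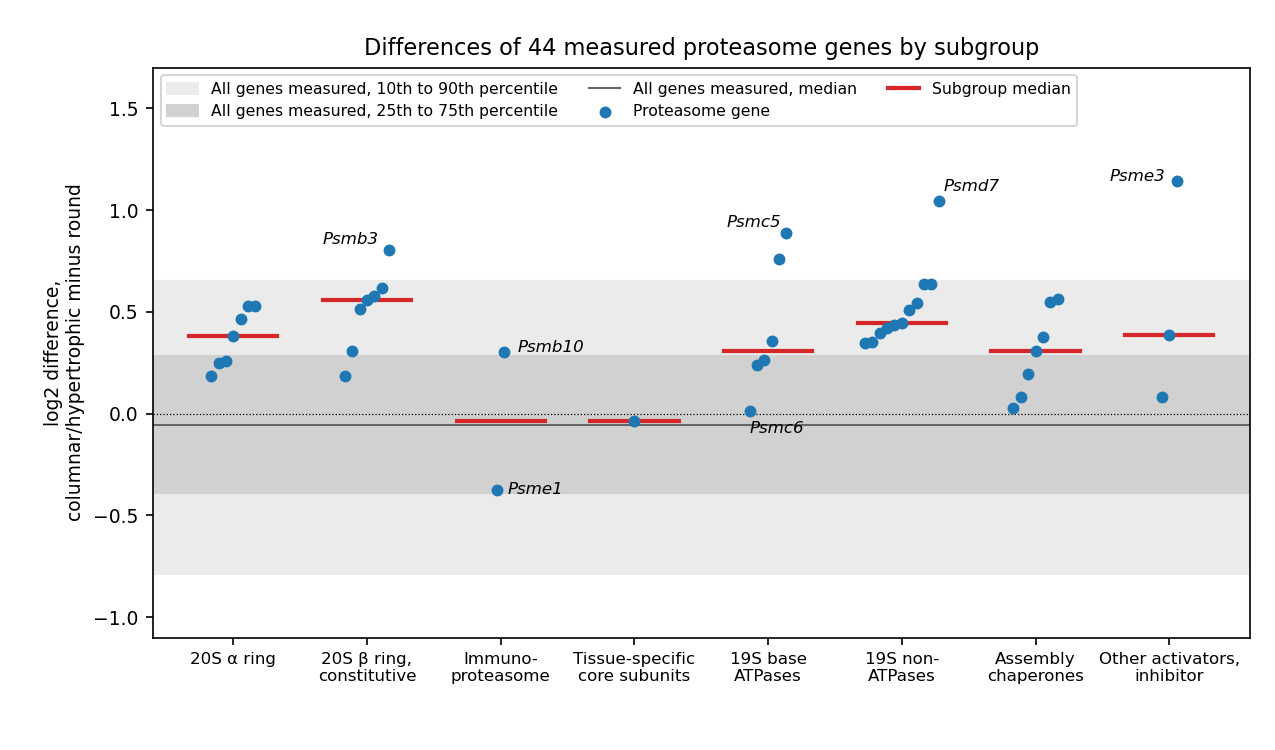
Log2 difference (columnar/hypertrophic minus round, vertical) of the 44 measured proteasome genes, 1 point per gene by its brightest probe set, in 8 subgroups, with subgroup medians as red bars and the 10th to 90th and 25th to 75th percentiles of all 11703 genes measured as grey bands. All points of the α ring, the constitutive β ring and the 19S subunits lie above 0, with Psmc6 at 0.01 and Psmd7 at 1.04, whereas Psme1 lies at -0.38.

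Assembly chaperones bring the subunits together and leave the finished particle. All 7 measured here lay above 0, between 0.03 and 0.56, with a median of 0.31. The chaperones of the core were the higher ones. Psmg3 had signals of 578 and 853 (1.48-fold) and Psmg2 1791 and 2620 (1.46-fold), the latter with 0.53 by its second bright probe set. Psmg4 and Psmg1 gave 0.38 and 0.31. The chaperones of the 19S base were the lower ones, Psmd5 with 1257 and 1280 (0.03), Psmd10 with 625 and 661 (0.08) and Psmd9 with 735 and 841 (0.19). Pomp, the maturation factor that completes the core and whose symbol lies outside the rule, had 3112 and 4489 (1.44-fold).

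The remaining activators and the inhibitor were not uniform. Psme3, which forms a nuclear activator that does not depend on ubiquitin, had the largest difference of all members, with signals of 225 and 495 (2.21-fold). Its second probe set also went up (110 and 188, 0.77), and its remaining one lay under the floor. Psme4, the nuclear activator PA200, had 3968 and 5184 (0.39), with 5 other probe sets between -0.26 and 0.40. Psmf1, the proteasome inhibitor PI31, had 475 and 503 (0.08), and its 3 other probe sets lay under 0, between -0.36 and -0.19. Of the core subunits known from testis and thymus, Psma8 had 207 and 202 (-0.04) and Psmb11, whose signals were under the floor, 8.72 and 46.1.

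The differences of the bright probe sets agreed and those of the dim ones did not. Beside the brightest probe set of each gene, the members had 36 further probe sets that both arrays detected, of which 22 lay above 0. Among these, 15 had a mean signal of at least 1000, and 14 of the 15 lay above 0 with a median of 0.39. The exception was a Psmc6 probe set at -0.22. Of the 21 dimmer ones 8 lay above 0, with a median of -0.17. On the whole array, probe sets at or above the same signal had a median of 0.08 and those under it -0.09, so the contrast ran the same way over all genes. At a mean signal of at least 1000, 34 of 34 members lay above 0, against 56.2% of 4261 genes.

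**Figure D3:**
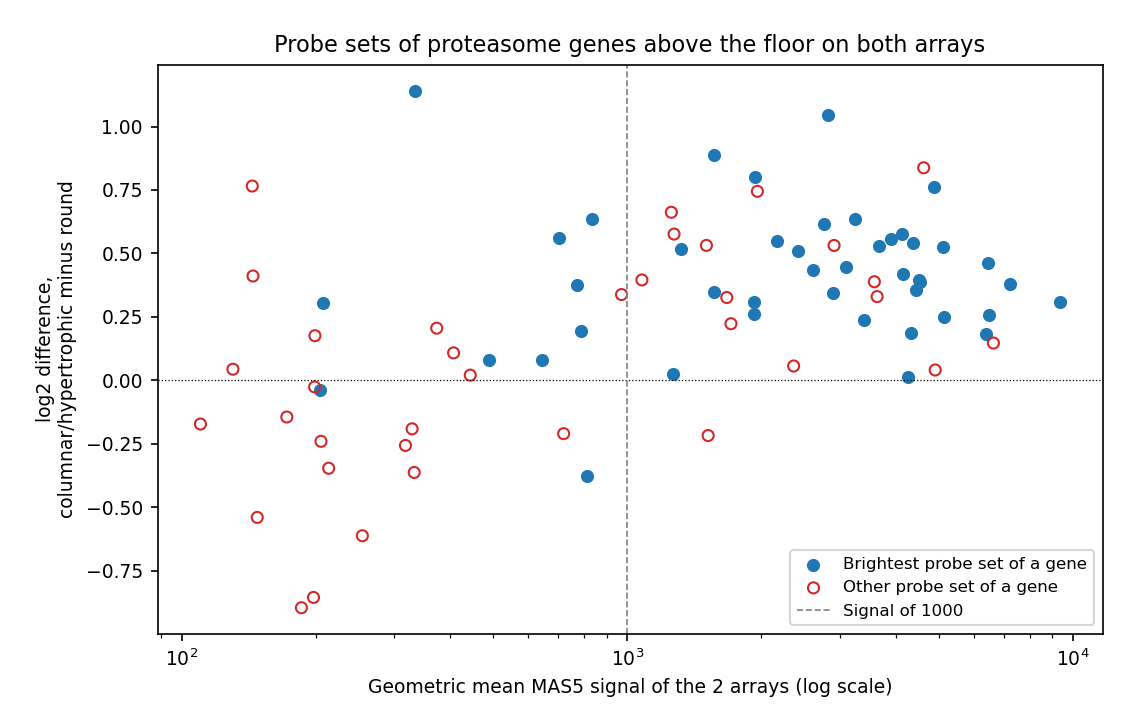
Log2 difference (vertical) against the geometric mean MAS5 signal of both arrays (horizontal, log scale) for the proteasome probe sets that both arrays detected, with the brightest of each gene as filled points, the others as open points and a dashed line at a signal of 1000. Right of the line all points but 1 lie above 0, and left of it the open points scatter on both sides, down to -0.90.

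Since proteasome genes have high signals, they were also read against the trend of differences with signal. After lowess centring 42 of the 44 members still lay above 0, against 48.2% of all genes, and the median was 0.32. Those under 0 were then Psme1 (-0.36) and Psmc6 (-0.09). After centring, 7 members were at least 1.5-fold higher (13.1% of all genes) and 0 lower (12.9%), and at 2-fold 1 was higher, Psme3 (5.04%), and 0 lower (5.11%). Other abundant machinery was set beside this as a description. For 47 cytosolic ribosomal protein genes the median was 0.22 as deposited and -0.01 after centring, with 44 and 22 above 0. For 72 genes of the respiratory chain and ATP synthase it was 0.30 and 0.18, with 60 and 53 above 0. For 24 endoplasmic reticulum chaperone and folding genes it was 0.24 and 0.12, with 20 and 14 above 0. With 1 array per zone these lists could not be tested against each other.

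**Figure D4:**
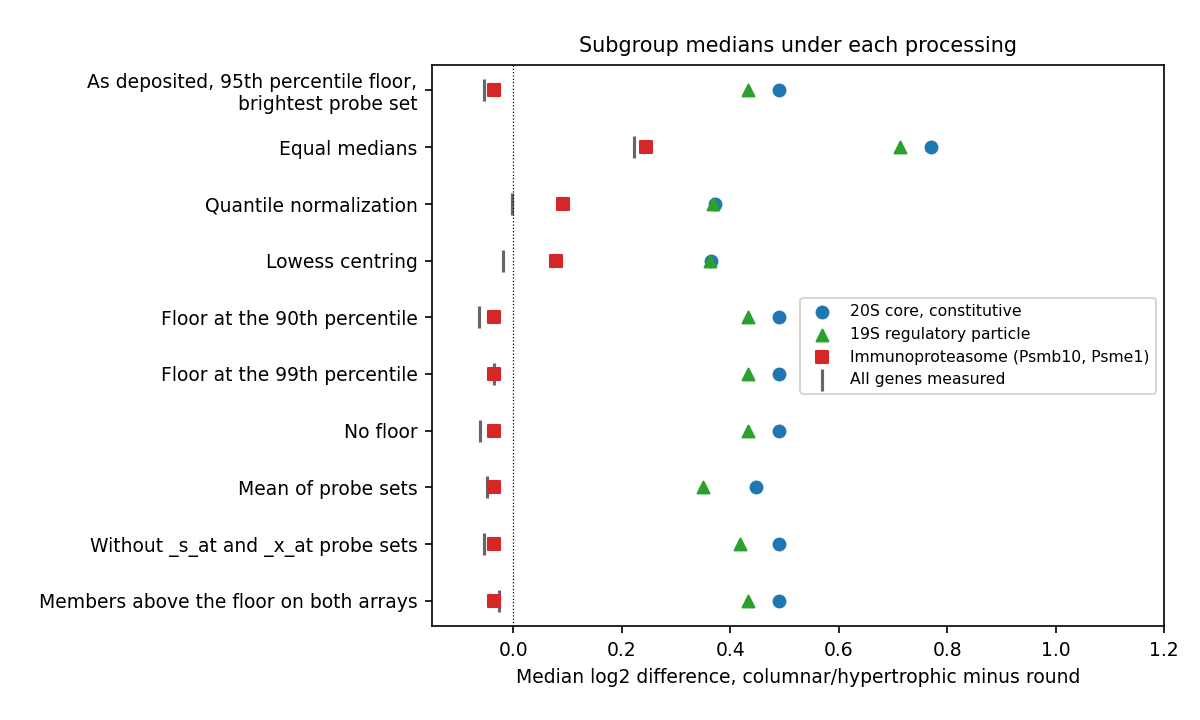
Median log2 difference (horizontal) of the 14 constitutive 20S genes (circles), the 17 genes of the 19S particle (triangles), the 2 measured immunoproteasome genes (squares) and all genes measured (bars), under the values as deposited and 9 alternative settings (vertical). The core and the 19S particle keep together, between 0.35 and 0.77. The immunoproteasome median lies below both, between -0.04 and 0.24. Only the scalings could move it, because each of its genes has a single probe set above every floor. Equal medians shift all these genes alike, so they could not change its distance to the core.

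Partners of the proteasome outside the rule followed it in part. Of 24 listed, 20 were measured and 17 lay above 0, against 45.1% of all genes measured, with a median of 0.35. At 2-fold, 0 were higher (4.31% of all genes) and 0 lower (6.37%). Rad23b, which shuttles ubiquitinated proteins to the proteasome, had 2365 and 4064 (1.72-fold, with its other probe sets between -0.09 and 0.54). Vcp, the segregase that extracts proteins from the endoplasmic reticulum membrane, had 6585 and 9650 (1.47-fold, but -0.14 by another probe set), and Usp14, a deubiquitinase of the proteasome, 1743 and 2363 (0.44, with others between -0.70 and 0.47). Ngly1, which removes sugars from such proteins and is known to be needed for NRF1 activity, went the other way with 1900 and 1210 (1.57-fold lower). Of 6 measured genes of ubiquitin conjugation, 4 lay above 0, against 45.1% of all genes measured.

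Genes of antigen processing and the interferon response were set beside the immunoproteasome subunits. Of 22 named alone by a probe set, 8 were under the floor on both arrays and 14 were measured, 10 of them above it on both. Tap2, Tapbpl and Erap1 were above it on the round array alone, so as deposited they could only lie below 0. Bst2 was above it on the columnar/hypertrophic array alone and could only lie above 0. Of all 14, 4 lay above 0 (median -0.25), against 45.1% of all genes measured. After lowess centring 6 lay above 0 (median -0.14), against 48.2%. As deposited, 4 were at least 2-fold lower (6.37% of all genes) and 1 at least 2-fold higher (4.31%). Irf1, the transcription factor that induces immunoproteasome genes, had 719 and 338 (2.13-fold lower), Irf9 365 and 140 (2.61-fold lower), and Erap1, which trims peptides, was at least 3.08-fold lower (309 and 70.3). H2-D1 had 1288 and 606 (2.13-fold lower), with other probe sets between -0.86 and 0.63. Bst2 was at least 3.63-fold higher (54.5 and 364). H2-K1, a class I gene like H2-D1, had 632 and 1259 (1.99-fold higher), but -0.42 by its other probe set. The others above 0 were Tapbp (0.41) and Stat2 (0.08).

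Of the immunoproteasome genes, Psmb8 and Psmb9 have genes of antigen presentation as neighbours. Psmb10 lies between Ctrl and Lcat, and Psme1 between Fitm1 and Emc9. Psmb8 and Psmb9 lie on chromosome 17 on either side of Tap1, a peptide transporter gene, which had 137 and 107 (-0.35), and Tap2, next to Psmb8, fell from 118 on the round array to 23.2, under the floor. Of 8 class II and peptide-loading genes set beside them, H2-Aa, H2-Oa, H2-Ob and Cd74 were under the floor, and 4 were measured. H2-DMa and H2-Ab1, above the floor on both arrays, were higher on the columnar/hypertrophic array. H2-DMb2 and H2-Eb1 were above it on that array alone, so they could only be higher there. Over all genes measured, 45.1% lay above 0. H2-DMa had 212 and 3186 (15.0-fold). H2-DMb2 was at least 7.92-fold higher (47.1 and 796), though 0.33 by another probe set. H2-Ab1 had 896 and 1622 (1.81-fold), and H2-Eb1, under the floor on the round array, was at least 1.16-fold higher (74.8 and 117).

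Markers were used to check the zones. The 8 chondrocyte markers were above the floor on both arrays, with summed signals of 211517 on the round array and 264384 on the other, and the hypertrophic list went from 3319 to 55672 and the round or resting list from 26025 to 1530. Perichondrium, fibroblast and tendon markers had summed signals of 82167 and 26067, with 6 of 8 measured and Scx and Thy1 under the floor on both arrays. The 5 above the floor on both arrays were lower on the columnar/hypertrophic array. Tnmd was above it on the round array alone, so it could only be lower. Of 12 blood and immune cell markers 7 were under the floor on both arrays, Ptprc among them, and the list summed to 1430 and 1054. Of the 5 measured, Cd68 and Rac2 were above the floor on the round array alone, so they could only be lower on the other. Of the 3 above it on both arrays, Laptm5 (466 and 234) and Csf1r (190 and 129) were lower on the columnar/hypertrophic array. Lyz2 was higher, 2.25-fold (130 and 293). Osteoblast and osteoclast markers summed to 1050 and 2599, moving the same way as most proteasome genes. Among them Sp7 was 11.4-fold higher (170 and 1940), Ctsk was 1.54-fold lower (803 and 522) and Acp5 was under the floor. Ibsp was above the floor on the columnar/hypertrophic array alone (0.94 and 124). Endothelial markers summed to 393 and 409, with 5 of 6 under the floor on both arrays. The 2 red cell markers were under it as well, with sums of 46.8 and 37.2. The summed levels of the perichondrial, immune and bone cell lists thus moved with the comparison. Their part in the differences of the proteasome genes, Psme1 included, was not tested. More cells with a high level and more RNA per cell cannot be told apart in these mixed samples.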

How the data were processed

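Total RNA from 3 cartilage plate portions was mixed for each of 2 Affymetrix Mouse Genome 430 2.0 arrays, 1 per zone. The deposited values are linear intensities, 1 per probe set for 45101 probe sets. MAS5 is named in the submitters' processing notes, and its version is not given in the sources used here. The method subtracts background and scales each array, and the trimmed mean without the lowest and highest 2% was 500.0 on both arrays. The study's methods name RMA, whose log values these are not.

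Genes were named from the platform annotation, using the 34958 probe sets with 1 symbol. The floor was the 95th percentile of 87 probe sets of chemosensory receptor genes, and lower signals were set to it before the log2 step. Each gene took its brightest probe set by mean log2 signal. Where 1 array was under the floor, the fold is a bound, written "at least". Lowess centring (span 0.3, statsmodels 0.14.6) subtracted the trend of difference on mean signal. Precision is limited by the number of arrays, and since groups hold 1 array each, nothing was tested and no p-value is given. The calculation was tested on simulated data with planted differences larger than that of any member. The simulation therefore does not show how well differences of the size reported here are recovered. Alternatives were 3 other scalings, 3 other floors, 2 other choices of probe set and members above the floor on both arrays.

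The members and the lists of genes were chosen with earlier results of these data known, and the lists of ribosomal, respiratory and folding genes after the proteasome values were seen. Values were given for the immunoproteasome genes and their constitutive counterparts, members at least 1.5-fold apart, the extremes of each subgroup, members under the floor and members with probe sets that disagreed. Further members, partners, marker genes and neighbouring genes were named after their values were seen. All 47 members matched the RefSeq gene table of GRCm38.p6, which was used for neighbours alone.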

Additional observations from a re-analysis of the deposited data

How the results depend on the processing

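No paired analysis was possible because each group is 1 array. Scaling to equal medians raised the median of all genes by 0.28 and that of the proteasome genes to 0.67, so their distance from all genes was 0.45 against 0.44 as deposited. It put the constitutive core at 0.77, the 19S particle at 0.71 and the measured immunoproteasome genes at 0.24, with 5 members at least 2-fold higher. Quantile normalization and lowess centring put the core at 0.37 and 0.36 and the immunoproteasome genes at 0.091 and 0.078, so the sign of the latter median is not settled. The immunoproteasome minus core difference was then -0.28 and -0.29, although Psmb10 by itself was at 0.52 and 0.51, above the core. At 2-fold, 1 member was higher under each of these, Psme3, and 0 when all probe sets of a gene were averaged. That average counts probe sets undetected on both arrays as 0, which draws it towards 0 but cannot change a sign. Signs changed through detected probe sets of the opposite sign, such as those of Psmd13 at -0.21 and -0.86. The average turned Psmd13 to -0.14 and lowered Psmd7 to 0.38, Psme3 to 0.64, Psmc2 to 0.35 and Psmd11 to 0.24. It left 37 of the 44 members above 0, and 27 of the 31 core and 19S genes, the others being Psma1, Psma6, Psmc6 and Psmd13. Without probe sets of the suffixes _s_at and _x_at, Psmd11 was 0.22. The median of all proteasome genes ran from 0.29 to 0.67 over the 9 alternatives, 0 members were at least 2-fold lower under any of them, and the causes of these shifts were not tested. Signals close to the floor, such as those of Psmb10, Psma8 and Psme3, are the least certain.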
